A study of Mus musculus with 3 samples.

Results

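The vomeronasal receptor gene clusters of the mouse were measured by array comparative genomic hybridisation, in which tumour DNA and normal DNA labelled with different dyes compete for the same probes. Members were all autosomal probes named for a Vmn1r or Vmn2r gene, which gave 207 probes for 88 genes (81 Vmn2r and 7 Vmn1r names), and the 435 unnamed probes within 100 kb of one of them. This made 642 of the 161449 autosomal probes and of 170293 probes in all, and the choice used names and positions, not measured values. The probes fell into 19 clusters on 7 chromosomes, where a gap of more than 1 Mb between neighbouring members started another cluster. Of these, 10 held at least 20 probes and 565 members together, and 9 smaller ones held the other 77.

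The samples were 3 lines of neurospheres, cell clumps that grow in suspension, from gliomas that resisted inhibition of CSF-1R, the receptor for colony-stimulating factor 1. Every line was taken at passages 2 to 3 and hybridised in Cy5 against mouse liver DNA in Cy3, so all values are of resistant lines and no sensitive or untreated tumour is among them. By the animal numbers in the labels, line 1 came from a different mouse than lines 2 and 3, and each liver has the number of its line, so that the 3 lines stand for 2 animals. The liver DNA of lines 2 and 3 has 1 number and may be 1 extract measured on both arrays, so the spread of the liver values over the 3 arrays is partly that of repeated measurement. A single slide held the arrays and the dyes were never exchanged, so dye and slide cannot be told apart from a difference between lines and liver. The labels used here do not state the strain, sex or tumour model.

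Vomeronasal receptors are G protein-coupled receptors of the vomeronasal organ, through which mice detect pheromones and other social odours. V1R receptors sit on neurons that signal through the G protein subunit Gnai2, and V2R receptors, which have a large extracellular domain, on neurons that signal through Gnao1. The genes lie in tandem arrays of close copies, with many pseudogenes, and such arrays are known for differences in gene number between mouse strains. Here the hybridisation signal of their DNA was compared between tumour and liver, and nothing in these data measures their expression.

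The array names only part of these families. The RefSeq gene table of build GRCm38.p6 lists 373 Vmn1r and 272 Vmn2r symbols, against 7 and 81 on the array. All 88 array names were found in that table, 86 as current symbols and 2 as synonyms. Probes were 45 to 60 bases long with 20% to 48.9% G and C. No member shared a stretch of 20 bases with another member or with any other probe on the array, although the genes themselves are close copies. How many places in the genome each probe matches was not read, so a probe may report several copies at once.

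The 7 probe sequences that follow are those the results turn on, as given in the scanner files, 5′ to 3′, with coordinates of build mm9, G and C in capitals, and no strand given in the sources used here. The first pair gave the widest differences between the array of line 1 and the others in both DNA channels, the next 3 were the members with the lowest ratio of line to liver, and the last pair were not well above background in either channel on any array.
Vmn2r-ps11, chr3:64557868-64557927: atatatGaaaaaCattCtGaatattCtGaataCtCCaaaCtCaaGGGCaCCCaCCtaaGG
Unnamed, chr3:64178754-64178813: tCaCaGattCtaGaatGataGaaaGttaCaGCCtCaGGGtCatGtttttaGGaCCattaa
Vmn2r24, chr6:123729135-123729194: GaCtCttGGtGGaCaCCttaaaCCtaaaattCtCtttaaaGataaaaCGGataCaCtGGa
Unnamed, chr17:19763283-19763342: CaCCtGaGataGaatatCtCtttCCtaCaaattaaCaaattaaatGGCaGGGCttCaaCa
Unnamed, chr7:49634136-49634195: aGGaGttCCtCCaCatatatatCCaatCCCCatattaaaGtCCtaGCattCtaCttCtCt
Unnamed, chr5:109264101-109264160: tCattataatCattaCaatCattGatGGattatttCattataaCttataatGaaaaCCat
Vmn2r16, chr5:109776432-109776491: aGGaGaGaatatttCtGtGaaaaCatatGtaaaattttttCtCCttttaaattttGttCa

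The first question was whether the clusters were lost or gained in the resistant lines. The median log2 ratio of line to liver over the 642 members, centred on the autosomal median of each array, was -0.058, -0.101 and -0.065 in lines 1, 2 and 3. All 3 lines lay below the other autosomal probes, by -0.075 ± 0.023 (SD, n = 3 lines), which is a ratio 5.07% lower. For scale, loss of 1 of 2 copies throughout a culture corresponds to -1 on this scale, and gain of a copy to 0.585. The exact 2-sided sign flip test gave p = 0.25, the smallest that 3 lines allow. Named and unnamed members gave nearly the same value, at -0.074 ± 0.022 and -0.077 ± 0.024 relative to the other autosomal probes. The 12 probes named for a V1R gene were at -0.029 ± 0.027 and the 195 named for a V2R gene at -0.074 ± 0.022, and the difference between them of 0.046 ± 0.036 had p = 0.25 by the exact sign flip test.

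The lower ratio was spread over many probes. Of the 642 members, 277 were below 0 in all lines, which is 43.1% against 34.0% of autosomal probes, and 132 were above 0 in all lines, which is 20.6% against 33.4%. Ratios below -0.5 in all lines were found for 11 members, or 1.71% against 0.698% of autosomal probes, and ratios above 0.5 in all lines for 0 members against 0.797%. Single ratios were widely scattered in line 1, where the SD over members was 0.373, and less so in lines 2 and 3 at 0.236 and 0.235. The SD over the other autosomal probes was 0.395, 0.251 and 0.266. The ratio of the 2 SDs averaged 0.923, but it was 1.03 with normexp background correction and 1.05 in the authors' value table, so no order of the spreads is given.

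The like gene family of olfactory receptors, taken by the same rule (719 probes), had medians of -0.073, -0.119 and -0.093 in lines 1, 2 and 3. Vomeronasal members lay above these olfactory receptor probes in every line, by 0.020 ± 0.007 (exact sign flip p = 0.25, 0.3 after Benjamini-Hochberg adjustment over 6 comparisons of probe sets). Against the 51574 other unnamed autosomal probes the difference was -0.077 ± 0.028, and against the 2730 probes within 1 Mb of a cluster it was -0.044 ± 0.028. The flanking probes were themselves at -0.028, -0.025 and -0.039. The members thus lay lower than their flanks in every line, and the flanks lower than the autosomal median. Probes just inside the 100 kb limit (80 to 100 kb from a named probe, 52 probes) had medians of -0.022, -0.054 and -0.048, and the 48 probes 100 to 120 kb away had -0.0082, -0.039 and -0.032.

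Taken over all members, each channel alone was dimmer, while single clusters lay on both sides of the autosomal median. The median liver signal of members, in log2 units from the autosomal median, was -0.108, -0.117 and -0.110 on the 3 arrays, and the neurosphere signal was -0.179, -0.239 and -0.176. Relative to the other autosomal probes the liver channel was at -0.112 ± 0.005 and the neurosphere channel at -0.199 ± 0.036. The SD of the liver value includes arrays 2 and 3, which may hold the same liver DNA. The exact sign flip test gave p = 0.25 for either channel. In liver the named members were at -0.216 ± 0.005 and the unnamed ones at -0.056 ± 0.011. In the neurosphere channel they were at -0.275 ± 0.035 and -0.155 ± 0.036. Members had a mean G and C content of 35.7% against 36.8% in other autosomal probes. Beside the shift of -0.075, a correction by G and C class, chosen after seeing the data, left -0.067 ± 0.025, and loess, which fits the ratio along brightness, left -0.104 ± 0.018.

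Of the 10 larger clusters, 6 had a median below 0 in all lines and 0 had one above 0 in all lines. Of the 9 smaller clusters, 7 were below 0 in all lines and 1 was above. How often other runs of probes of like size kept 1 sign in all lines was not counted. Over the other autosomal probes the ratios of the lines were correlated (r = 0.64 to 0.82), so the lines are not independent in sign. The means of the larger clusters ran from -0.210 to 0.013, and 8 of the 10 lay below the probes within 1 Mb on either side. Benjamini-Hochberg adjusted exact sign flip p-values over the 10 ranged from 0.417 to 1, so none could pass with 3 lines.

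**Figure D1:**
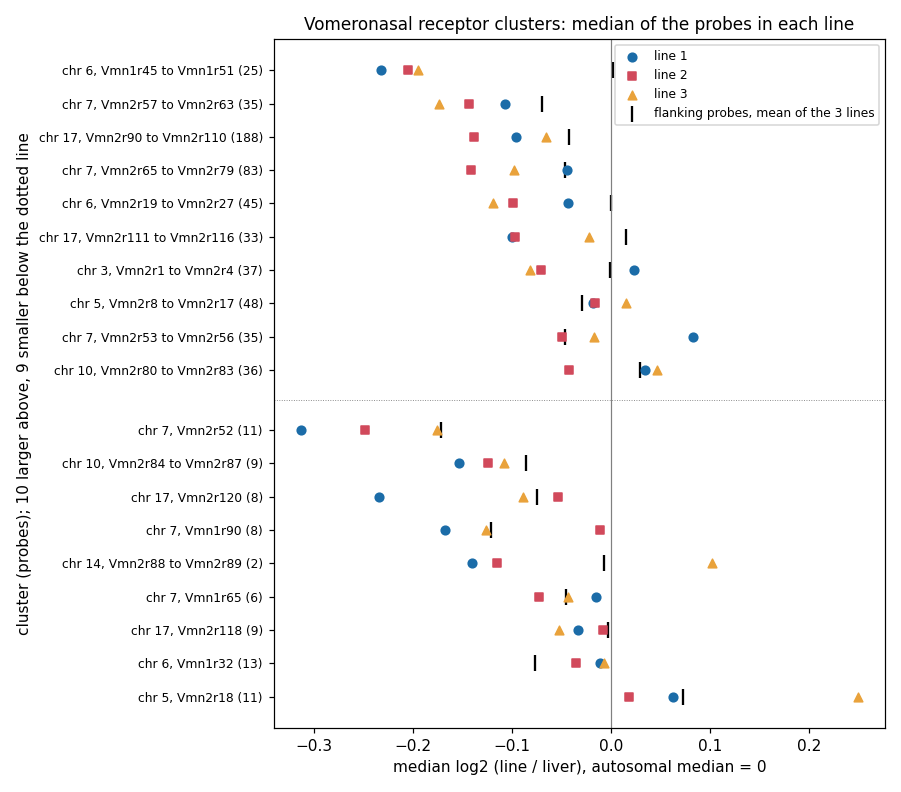
Median log2 ratio of line to liver for each of the 19 clusters, with the number of probes in brackets. Circles, squares and triangles are lines 1, 2 and 3, and the upright bar is the mean over the lines of the median of probes within 1 Mb of the cluster. Rows above the dotted line are the 10 clusters with at least 20 probes, each labelled by its first and last V2R gene (V1R genes where it has no V2R gene). The chromosome 6 cluster around Vmn1r45 and Vmn1r51 has all 3 lines between -0.232 and -0.194, at -0.212 relative to its flanks.

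By medians the lowest of the larger clusters was the only one named for V1R genes alone, on chr6:89792161-90173216 with 25 probes around Vmn1r45 and Vmn1r51. Its median was -0.232, -0.205 and -0.194 in the 3 lines, and their mean was -0.210 ± 0.019, a ratio 13.6% lower. The flanking probes had 0.038, 0.014 and -0.046, above the cluster in every line. The cluster was picked as the lowest of the larger ones, so its distance from the flanks follows partly from the choice. Of the 25 probes, 17 were below 0 in all lines, which is 68.0%, and 5 were above 0 in all lines. Only 3 of the 25 carry a V1R name, the other 22 being unnamed probes nearby. Vmn1r45, with 2 probes, had -0.067, -0.182 and -0.175. Vmn1r51, with 1 probe, was above 0 in all lines at 0.013, 0.015 and 0.174. The mean of the 25 probes in place of the median was -0.162. By such means the order turned, as the chromosome 7 cluster described next was lower at -0.174.

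Next came the chromosome 7 cluster of Vmn2r57 to Vmn2r63 (chr7:48663622-50251457, 35 probes) with -0.107, -0.143 and -0.174. Its difference from its flanks was -0.072, and 21 of its 35 probes were below 0 in all lines. The cluster of Vmn2r65 to Vmn2r79 (chr7:92089711-94261908, 83 probes) had -0.044, -0.141 and -0.098. Its flanks had -0.009, -0.068 and -0.061, above it in every line. The chromosome 6 cluster of Vmn2r19 to Vmn2r27 (chr6:123174802-124250773, 45 probes) had -0.043, -0.099 and -0.119, against flanks of -0.009, 0.019 and -0.011. All of these genes have V2R names, though the names of Vmn2r68-ps and Vmn2r72-ps mark them as pseudogenes. Vmn2r26 is the mouse receptor also known as V2r1b, which responds to peptides presented by MHC class I molecules.

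The largest cluster lay on chr17:17772616-21488446, with 188 probes over 3716 kb, from Vmn2r90 to Vmn2r110 with Vmn1r235 at its far end. Its medians were -0.096, -0.139 and -0.065. Of its probes, 87 were below 0 in all lines (46.3%) and 27 above. Along the cluster, 22 bins of 100 kb could be tested, and 8 were below 0 past the limma threshold (14.5% of all bins of that size were) with 0 above (18.6% were). Bin means ran from -0.266 to 0.078. Each bin held few probes, and single probes of the cluster had an SD of 0.357, 0.229 and 0.215 in the 3 lines. Whether the bins differed beyond that scatter was not tested. Without it, the members as a whole were at -0.065 ± 0.025 relative to other autosomal probes, a choice made after seeing the data.

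**Figure D2:**
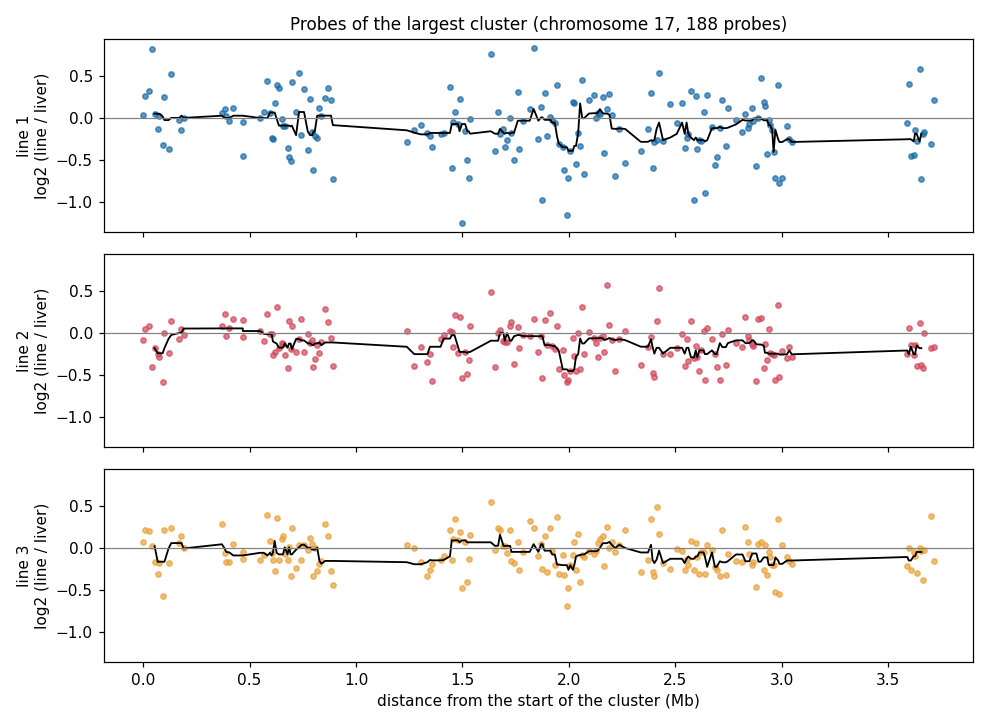
Log2 ratio of line to liver for the 188 probes of the chromosome 17 cluster by distance from its start, with 1 panel per line. Points are single probes and the black line is the running median over 9 probes. The running median stays mostly within 0.5 of the 0 line in the 3 panels, and points scatter more in line 1, where they reach -1.25.

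A second chromosome 17 cluster (Vmn2r111 to Vmn2r116, chr17:22623411-23627903, 33 probes) includes Vmn2r116, the receptor for the male tear peptide ESP1. Its ratio medians were -0.100, -0.097 and -0.023. It was the brightest of the larger clusters, with liver medians of 0.80, 0.73 and 0.72 and neurosphere medians of 0.84, 0.55 and 0.63. Its ratio did not keep its sign under other corrections, being 0.044 with normexp background correction, 0.001 with loess and 0.064 in the authors' value table, so no direction can be given.

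The other 4 larger clusters had lines on both sides of 0. The chromosome 3 cluster of Vmn2r1 to Vmn2r4 (chr3:63843549-64702204, 37 probes), which belong to the V2R family C that is co-expressed with other V2R receptors, had 0.023, -0.070 and -0.081. The chromosome 5 cluster of Vmn2r8 to Vmn2r17 (chr5:109142076-109969070, 48 probes) had -0.018, -0.016 and 0.015. The chromosome 7 cluster of Vmn2r53 to Vmn2r56 (chr7:13089010-13805988, 35 probes) had 0.083, -0.049 and -0.017. The chromosome 10 cluster of Vmn2r80 to Vmn2r83 (chr10:78514608-79037763, 36 probes) had 0.034, -0.042 and 0.046. In all 4 the mean was smaller than the SD between lines, so none differed from 0 beyond that spread. Among the smaller clusters, that of Vmn2r52 (chr7:10709960-10850473, 11 probes) was lowest at -0.312, -0.248 and -0.175, and its flanks were low too at -0.147, -0.222 and -0.146. That of Vmn2r18 (chr5:152287302-152466320, 11 probes) was above 0 in every line at 0.062, 0.018 and 0.249, and its flanks were at 0.054, 0.062 and 0.101.

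Tested in bins over the whole genome with limma, the clusters gave lower values more often than higher ones. Of 8 bins of 1 Mb in which at least 50% of probes were members, 7 were below 0 at an adjusted p under 0.05, against 21.9% of all 2383 bins, and 0 were above, against 18.3%; at an unadjusted p under 0.05 the counts were 7 and 0. Their means ran from -0.154 ± 0.040 (chr7:10000001-11000000) to -0.034 ± 0.00059 (chr5:109000001-110000000, adjusted p = 0.275, the bin that did not pass). Without line 2 the count fell to 2 (11.8% of all bins were below) and without line 3 to 4 (17.9% were). With lines 2 and 3 averaged as 1 animal it was 4 (19.4% were). The bins at chr7:10000001-11000000 and chr17:20000001-21000000 passed with each line left out. In the chromosome 7 bin only 11 of 20 probes were members. The flanks of its Vmn2r52 cluster were low too, at -0.147, -0.222 and -0.146. Of 76 bins of 100 kb, 29 were below 0 and 1 was above, against the same 14.5% and 18.6% of all 15697 bins. That bin, at chr5:152300001-152400000 beside Vmn2r18, had 0.119, 0.167 and 0.276 in the 3 lines. The lowest was chr17:19700001-19800000 at -0.284, -0.320 and -0.194. All 3 bins of the chromosome 6 cluster around Vmn1r45 and Vmn1r51, most of whose probes are unnamed, were below 0.

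At least 3 probes were available for 31 of the 88 genes. Their means had a median of -0.094, against 0.011 over the 9502 genes tested, and 23 of 31 were below 0. With limma, 9 genes were below 0 at an adjusted p under 0.05 (9.98% of all genes tested were) and 0 were above (14.2% were). At an unadjusted p under 0.05 the counts were 13 and 0. With lines 2 and 3 averaged, 5 genes passed, Vmn2r24, Vmn2r27, Vmn2r60, Vmn2r61 and Vmn2r95, all below 0, beside 2.64% of all genes below. Of these, Vmn2r24, Vmn2r27, Vmn2r60 and Vmn2r61 also passed with each line left out, with normexp, loess, a G and C correction and the background filter, in the authors' value table, and with medians in place of means.

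**Figure D3:**
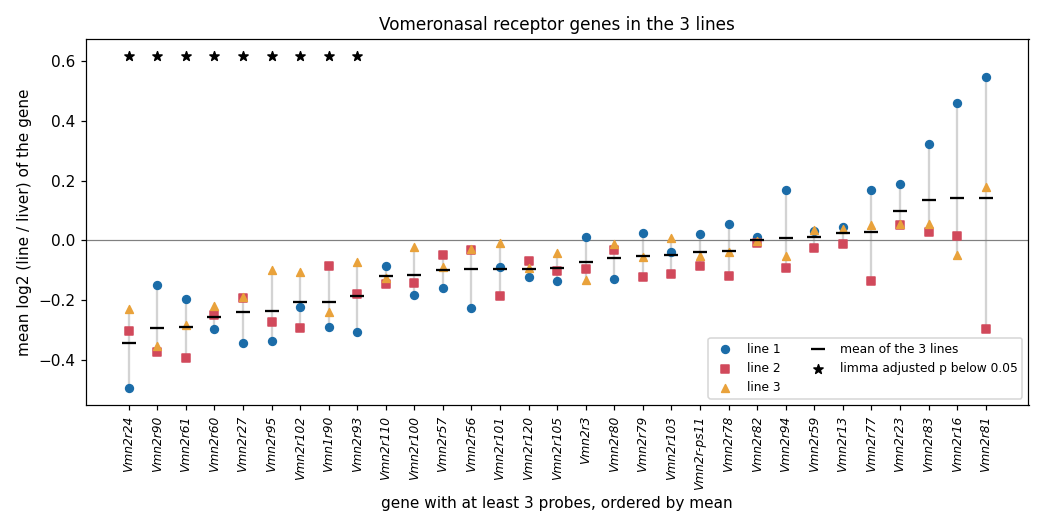
Mean log2 ratio of line to liver for the 31 genes with at least 3 probes, ordered by mean. Circles, squares and triangles are lines 1, 2 and 3, dashes are the mean, grey bars span the 3 lines, and stars mark the 9 genes below 0 past the limma threshold. The genes at the right end, Vmn2r83, Vmn2r16 and Vmn2r81, have the highest values in line 1.

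Vmn2r24 on chromosome 6 was lowest, at -0.50, -0.30 and -0.23 (mean -0.34, SE 0.055, adjusted p = 0.0071, 4 probes), a ratio 21.2% lower. All 3 lines were below 0, but 1 probe carried much of the value. That probe, whose sequence is given above, had -1.18, -0.74 and -0.63, while the other 3 probes lay between -0.43 and -0.01. Vmn2r90, at the start of the largest cluster, had -0.15, -0.38 and -0.35 (adjusted p = 0.0094), and passed neither with normexp correction (adjusted p = 0.25) nor in the authors' value table (adjusted p = 0.073). The lines from the second animal were lower here than line 1.

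Vmn2r60 and Vmn2r61 are neighbours on chromosome 7. Vmn2r60, with 9 probes, had -0.30, -0.25 and -0.22 (mean -0.26, SE 0.040, adjusted p = 0.0069). Its 3 lines lay closer together than those of any other gene past the threshold. Vmn2r61 had -0.20, -0.39 and -0.28 (adjusted p = 0.0074). Vmn2r27 had -0.34, -0.19 and -0.19 (adjusted p = 0.011), and 1 of its 4 probes was not well above background. Vmn2r95 had -0.34, -0.27 and -0.10 (adjusted p = 0.017). It no longer passed without line 2 or with medians (adjusted p = 0.079 for either), with normexp correction (-0.10, adjusted p = 0.14) or in the authors' value table (-0.11, adjusted p = 0.12). The other genes past the threshold were Vmn2r102 at -0.21, Vmn1r90 at -0.21 and Vmn2r93 at -0.19. Of the 5 Vmn1r90 probes, 1 had a mean of -0.75 and carried much of the value. Vmn2r102 and Vmn2r93 lost the call without line 2 (adjusted p = 0.13 and 0.12), and Vmn1r90 without line 3 (adjusted p = 0.084), with normexp (adjusted p = 0.054) and with medians (adjusted p = 0.15).

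The 6 highest genes did not pass. Vmn2r81 had 0.55, -0.30 and 0.18, Vmn2r16 had 0.46, 0.01 and -0.05, and Vmn2r83 had 0.32, 0.03 and 0.05. In each of them line 1 was the high one. Vmn2r23 had a mean of 0.099, Vmn2r77 of 0.027 and Vmn2r13 of 0.023. Without line 2, Vmn2r81 passed at 0.36 (adjusted p = 0.026). With normexp correction Vmn2r13 and Vmn2r83 passed at 0.20 and 0.21 (adjusted p = 0.013 and 0.047) and Vmn2r16 turned to -0.19. In Vmn2r81 and Vmn2r16, 1 probe of 3 was not well above background on any array, so these means rest partly on signals near background. Another Vmn2r16 probe fell short in 1 channel of 1 array. The 57 genes with 1 or 2 probes were not tested here, and their means ran from -0.66 (Vmn2r73, 1 probe) to 0.31 (Vmn2r68-ps, 1 probe, and Vmn2r112, 1 probe). Vmn2r52, with 2 probes, was at -0.53 ± 0.12.

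The lowest single members were bright or near average in liver, and the highest lay below the autosomal median there. Liver is the denominator of the ratio, so a choice by lowest ratio favours probes bright in liver. After the Vmn2r24 probe came chr17:19763283-19763342, with ratios of -1.15, -0.59 and -0.69. The probe chr7:49634136-49634195 had -0.92, -0.72 and -0.80, with liver signals of 2.47, 2.32 and 2.43 above the autosomal median and neurosphere signals of 1.54, 1.59 and 1.62. It was therefore lower in the lines than in liver while bright in both. A probe of Vmn1r90 (chr7:15166472-15166531) was alike, with ratios of -0.82, -0.57 and -0.87 and liver signals of 2.28, 2.11 and 2.19. Signals over 2 above the autosomal median in both channels on every array were seen for 5 members (0.779%, against 0.532% of other autosomal probes), and under -2 for 21 (3.27%, against 1.34%). The latter had a mean G and C content of 32.2%.

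In all, 615 members (95.8%) were well above background in both channels on every array. The other 27 had a mean G and C content of 32.2% against 35.8%, and 6 of them, among them 1 probe each of Vmn2r16, Vmn2r27, Vmn2r80 and Vmn2r81, were not well above background on any array in either channel. The probe at chr5:109264101-109264160, with 20% G and C, had liver signals of -4.50, -4.94 and -5.01. No ratio is given for these 6 probes on their own.

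Because the liver DNA carried the same animal numbers as the lines, the array of line 1 was set against those of lines 2 and 3 in both channels. A difference in both channels cancels in the ratio. Both channels are read from the same spot, so DNA that tumour and liver of an animal share cannot be told apart from an effect of the spot or array. With 1 array against 2 that share an animal number, the limma calls are on these arrays and show nothing about a difference between the animals. Over all members the median difference, line 1 minus lines 2 and 3, was 0.020 in the liver channel and 0.032 in the neurosphere channel. With limma on single probes, 83 members passed in the liver channel (12.9%, against 13.2% of autosomal probes), 13 in the neurosphere channel (2.02%, against 1.56%) and 96 in the ratio (15.0%, against 16.9%). These shares are near those of the whole genome.

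**Figure D4:**
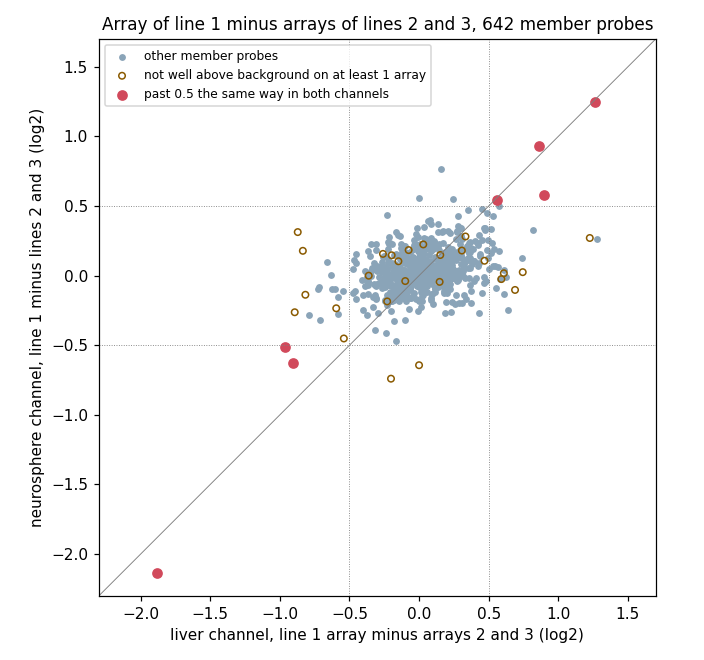
Difference between the array of line 1 and the arrays of lines 2 and 3 for the 642 members, in the liver channel (horizontal) and the neurosphere channel (vertical), both in log2 units with equal scales. Filled large points are the 7 members past 0.5 the same way in both channels, open points are members not well above background on at least 1 array, and the diagonal marks equal differences. The Vmn2r-ps11 probe lies alone at lower left, at -1.89 and -2.14.

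A difference past 0.5 the same way in both channels was found for 7 members (1.09%, against 0.924% of autosomal probes), 4 higher and 3 lower in line 1. The widest was the Vmn2r-ps11 probe at chr3:64557868-64557927, in a gene whose name marks it as a pseudogene. Its liver signal was -0.79 on the array of line 1 and 1.18 and 1.02 on the others, and its neurosphere signal was -0.88 against 1.38 and 1.14. Line 1 and its liver were low together. The probe was picked for this difference, so its separation from arrays 2 and 3 follows from the choice. The ratio was -0.08, 0.21 and 0.14, so this difference is almost absent from it. The probe ranked 26 of 161449 autosomal probes by the smaller of its 2 differences. The nearest members lay 19.6 kb before and 19.7 kb after it, and the other 9 Vmn2r-ps11 probes did not pass 0.5 in both channels.

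The other wide difference lay 379.1 kb away in the same cluster and ran the other way. At chr3:64178754-64178813 the liver signal was 0.27 for line 1 against -0.83 and -1.17, and the neurosphere signal was 0.45 against -0.53 and -1.05. Its neighbours 21 kb before (chr3:64157746-64157805) and 29.7 kb after (in Vmn2r4) did not pass 0.5 in both channels, so in each case a single probe differed. The remaining 5 were unnamed probes. At chr7:13662900-13662949 the difference was 0.86 in liver and 0.93 in neurosphere DNA, at chr10:78918738-78918797 0.89 and 0.58, and at chr5:109401276-109401335 0.56 and 0.55. The 2 others were lower in line 1, chr7:49580446-49580505 by -0.96 and -0.51, and chr7:5987434-5987493 by -0.90 and -0.63, the last not well above background on 1 array.

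By gene means the liver channel gave 5 calls among the 31 genes, with Vmn2r-ps11 and Vmn2r16 lower on the array of line 1 (3.78% of all genes were) and Vmn2r24, Vmn2r56 and Vmn2r57 higher (3.7% were). The differences were -0.27, -0.58, 0.23, 0.38 and 0.31. That of Vmn2r-ps11 rests largely on the probe above, since its other 9 probes averaged -0.086, with 5 lower and 4 higher on the array of line 1. That of Vmn2r16 turned to 0.48 with normexp correction (adjusted p = 0.040). The neurosphere channel gave 0 of 31 with limma (0.232% of all genes), and 3 at an unadjusted p under 0.05, all higher in line 1. When only probes well above background were kept, 0 of 27 genes were called in liver (9 at an unadjusted p under 0.05), and 0.011% of all genes were below and 0 above. The differences barely moved, at -0.27 for Vmn2r-ps11, 0.23 for Vmn2r24, 0.38 for Vmn2r56 and 0.30 for Vmn2r57 (adjusted p = 0.051 to 0.060), and Vmn2r16 was left with too few probes. With normexp correction the calls in liver moved to higher ones on the array of line 1, in these genes and over all genes. In the ratio 4 genes were higher in line 1 (4.57% of all genes were), Vmn2r81 by 0.61, Vmn2r16 by 0.48, Vmn2r83 by 0.28 and Vmn2r94 by 0.24, and 0 were lower (3.99% were; 3 at an unadjusted p under 0.05). With normexp correction Vmn2r16 turned to -0.21 and Vmn2r81 fell to 0.067.

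The partners of these receptors, and the separate family of formyl peptide receptors, were read from the same arrays. Of 67 listed genes for ligands, co-receptors, formyl peptide receptors and signalling, 17 had a probe and 5 had at least 3. By limma 0 of the 5 passed the threshold in either direction (at an unadjusted p under 0.05, 1 was above and 1 below). These were Trpc2, the channel that vomeronasal transduction depends on, at -0.033 ± 0.12, Gnao1 at 0.023 ± 0.073, Plcb2 at 0.13 ± 0.076, and the calcium-activated chloride channels Ano1 at 0.088 ± 0.065 and Ano2 at -0.14 ± 0.065. Of the 12 with a single probe, 5 were below 0 in all lines, 2 above and 5 mixed. Below 0 in all lines were Esp8, of the exocrine gland peptide family (-0.34, -0.29 and -0.34), H2-M9, of the H2-M family of MHC class I genes found with V2R receptors (-0.35, -0.17 and -0.41), H2-M10.1 (mean -0.15), Gnai2 (-0.13) and the formyl peptide receptor gene Fpr1 (-0.15). Above 0 in all lines were the major urinary protein gene Mup3 at 0.29, 0.28 and 0.088 and H2-M11 at 0.31, 0.22 and 0.12. H2-M10.6 (mean -0.017), Esp34 (-0.052) and Esp36 (-0.040) had lines on both sides of 0. The means of the exocrine gland peptide genes were thus all below 0, though not in every line. Those of the H2-M genes differed in sign, with H2-M11 above 0 and the others below. Rtp2, of a family of receptor transporting proteins, (-0.030) was mixed too. No replicate test was made for single-probe genes of this list. Fpr1 and Fpr2 lie within the largest cluster, with means of -0.15 ± 0.13 and 0.043 ± 0.37.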

How the data were processed

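Array comparative genomic hybridisation was deposited as 3 scanner files and 1 value table. Each spot's intensity was computed by the authors with Agilent Feature Extraction 10.7.3.1 on build mm9, which per the file headers included background subtraction, detrending in space and by a multiplicative fit, and linear dye normalisation. The deposited log10 ratio is Cy5 over Cy3, and the value table holds log10 values of the same arrays, with a centring that no source used here gives.

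Of 180880 spots, 6575 controls and 160 to 179 outlier-marked spots per array were left out, and 0 were saturated. Spots of the same probe were averaged. The log2 ratio of the 2 channels (line over liver) and the log2 signal of either channel were centred on the autosomal median of its array. Precision is limited by 3 arrays. Sets and clusters were compared by medians with exact 2-sided sign flip tests. Gene means (at least 3 probes), bins (at least 10 probes in 1 Mb, at least 5 in 100 kb) and the contrast of line 1 with lines 2 and 3 were fitted over all genes, bins or probes with limma 3.58.1 in R 4.3.3, with Benjamini-Hochberg adjustment at 0.05, and tested on simulated data. That contrast has 1 residual degree of freedom before moderation, from arrays that share an animal number, so it compares arrays and not animals. The p-values rest on the spread among 3 lines from 2 animals and say nothing of other tumours. Tables and figures were made in Python 3.11.15 (pandas 2.3.3, matplotlib 3.10.9).

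The members, lists and tests were chosen with earlier results of these data known. Named were every cluster of at least 20 probes, the 6 highest and 6 lowest genes, the 6 genes with the widest difference between line 1 and lines 2 and 3 in liver and in the ratio, and listed signalling genes with a probe. Other names, such as the smaller clusters, extreme probes and genes past a threshold, were chosen after their values were seen. Alternatives were normexp (offset 50), loess, quantile scaling, the value table, a background filter, other gaps, distances and bin sizes, and leaving out lines. Exon and intron annotation of mm9 was not used here.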

Additional observations from a re-analysis of the deposited data

Results flagged for a closer look

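For 4 genes the log2 ratio of line to liver passed the limma threshold between the array of line 1 and those of lines 2 and 3. The spread came only from 2 lines that share an animal number, so these calls compare arrays and show no difference between animals. The difference was 0.61 for Vmn2r81, 0.48 for Vmn2r16, 0.28 for Vmn2r83 and 0.24 for Vmn2r94, each higher in line 1. For Vmn2r81 and Vmn2r16, 1 of 3 probes was not well above background on any array. Vmn2r83 had 3 probes and Vmn2r94 had 4, and the call on Vmn2r94 was lost with normexp correction (0.062), loess (0.17) and quantile scaling (0.185). The difference of Vmn2r83 was as large and past the threshold with normexp (0.399), loess (0.292), quantile scaling (0.289) and probes well above background (0.286). Groups of 3 lines were too small to search for single outlying samples.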

How the results depend on the processing

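The shift of the members relative to other autosomal probes kept its sign in all settings run, from -0.107 with normexp correction to -0.044 against flanking probes. Leaving out lines gave -0.084 to -0.062. The 6 larger clusters below 0 in all lines became 5 to 8, and the spread of members over that of other probes, 0.923, became 1.03 with normexp and 1.05 in the authors' value table. The chromosome 17 cluster of Vmn2r111 to Vmn2r116 turned to 0.044 with normexp, 0.00061 with loess and 0.064 in the value table; the cause was not tested. Genes below 0, 9 in the report, were 15 with loess, 5 with lines 2 and 3 averaged, 17 of 88 with 1 probe per gene and 2 of 5 with 5 probes, where other genes are tested. Genes above 0, 0 in the report, were 2 with normexp, 1 with 1 probe per gene and 0 to 1 on leaving out lines. Bins of 1 Mb below 0, 7 in the report, were 4 with lines 2 and 3 averaged, beside 19.4% of all bins. They were 2 to 6 on leaving out lines, beside 11.8% to 18.1% of all bins. With bins of 100 kb, which are more numerous, 29 were below and 1 above. Between the array of line 1 and the others in liver, the calls on genes moved to higher ones with normexp, as over all genes. They were lost with probes well above background, as nearly all were over all genes. With 1 probe per gene they were fewer, again as over all genes. In the ratio, 4 above and 0 below became 2 above with normexp, 2 above with probes well above background, 1 below with loess, 2 below with quantile scaling and 4 below with 1 probe per gene. With normexp, Vmn2r16 turned to -0.188 as a mean, to 0.482 in liver and to -0.210 in the ratio between these arrays, and Vmn2r81 to 0.136 in liver. In all, 341 of 410 values under alternatives were scored as unchanged, by a loose rule. Counts could move within a set fold, as from 9 to 13 genes below 0 with normexp. Cluster medians could move by up to their SD. Genes past the threshold in neither setting were scored as unchanged even where the sign turned. Vmn2r77, for example, went from 0.027 to -0.122 with normexp. Corrections by G and C content, flanking probes as reference, leaving out the largest cluster and single-probe fits were chosen after seeing the data. No paired analysis was possible because the lines form a single group, beyond the ratio itself, which pairs each line with its liver. Signal near background limits the 27 members named in the report.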
